A study of Mus musculus with 16 samples.

Results

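Arl2bp, Mat2b, Sult4a1, Sumo3 and Uap1 are 5 protein-coding mouse genes that were picked because the mix of their isoforms had differed between R6/2 and non-transgenic (NT) mice in an earlier look at the same cortical reads. They were thus chosen by the cortical shares of their isoforms. They were found by gene name in every deposited table of counts and are 5 of 24035 annotated genes with at least 1 read, with 359 of the 815498 isoforms listed. Since the cortical isoform shares chose these genes, cortical differences between genotypes are given as a description with no test, and these 5 genes were tested only in the striatum and for gene levels between regions. The study's methods describe taking both regions from the left hemisphere, so striatal and cortical samples may come from the same mice. The striatal tests may therefore not be independent of the choice of genes.

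RNA of 2 brain regions, cortex and striatum, taken from male mice at 3 months of age, had been read as full-length cDNA by PacBio Iso-seq, in which each read shows the exons joined in 1 molecule. R6/2 mice, of the line B6CBA-Tg(HDexon1)62Gpb/3J, carry a transgene with exon 1 of the human huntingtin gene and an expanded CAG repeat, and are used as a model of Huntington's disease that expresses only this fragment of the mutant protein. NT mice lack the transgene. Each region was sampled in 4 NT and 4 R6/2 mice, numbered 1 to 4, which gives 16 samples. Cortical samples had 252885 to 808814 reads and striatal samples 317050 to 1496196. Striatal samples NT 1, NT 2, R6/2 2 and R6/2 3 have 2 sets of counts each, which were summed, and the labels speak of 2 replicates in their raw records without saying whether these are libraries, runs or mice, so a summed sample may hold more than 1 mouse. The number of sets split the striatal samples, with a mean isoform length per read of 2125 to 2197 nt in samples of 2 sets and 1589 to 1840 nt in samples of 1 set, and each number of sets holds 2 NT and 2 R6/2 mice. In the cortex, that length was 1821 to 2068 nt in NT and 1844 to 2003 nt in R6/2 mice.

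Many genes make several isoforms by starting transcription at different first exons, by using different splice donors, or by including or skipping an internal exon. Such choices can exchange the start of a protein or add a short stretch within it while the rest of the coding sequence stays the same. Arl2bp encodes a partner of the small GTPases ARL2 and ARL3 and is known for roles at primary cilia. Mat2b encodes the regulatory subunit of methionine adenosyltransferase 2, the enzyme that makes S-adenosylmethionine, the methyl donor of most cellular methylation. Sult4a1 encodes a cytosolic sulfotransferase family member found mainly in neurons. Sumo3 encodes a small ubiquitin-like modifier that is attached to lysines of many nuclear proteins. Uap1 encodes the enzyme of the last step of UDP-N-acetylglucosamine synthesis, whose product feeds protein glycosylation, including O-GlcNAc. The forms of human UAP1 without and with a short insert near the end of the protein are known as AGX1 and AGX2.

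A share is given here as percent of complete reads, that is reads of isoforms that match an annotated transcript (known), pair annotated splice sites that no annotated transcript pairs (NIC) or use a splice site outside the annotation (NNC). Reads that match only part of a transcript (ISM) enter gene levels but not shares. Levels are CPM, counts scaled to a common normalized library size. The 5 genes had 482 (Uap1) to 10029 (Sult4a1) complete reads over the 16 samples. Isoforms with at least 10 reads in a region numbered 5 for Arl2bp, 5 for Mat2b, 5 for Sult4a1, 4 for Sumo3 and 3 for Uap1, and held 93.2% to 98.6% of each gene's complete reads.

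The first coding bases of the isoforms that exchanged places are shown because Arl2bp, Mat2b and Sumo3 differ there (annotated GENCODE M21 transcripts, mm10). Capitals mark the coding bases of the first exon and lower case the exons that follow, which the isoforms of a gene share.
Arl2bp-001: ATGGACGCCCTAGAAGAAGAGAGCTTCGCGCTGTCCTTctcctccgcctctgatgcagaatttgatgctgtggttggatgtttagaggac
Arl2bp-002: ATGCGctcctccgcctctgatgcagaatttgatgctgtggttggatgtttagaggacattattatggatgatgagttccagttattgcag
Mat2b-002: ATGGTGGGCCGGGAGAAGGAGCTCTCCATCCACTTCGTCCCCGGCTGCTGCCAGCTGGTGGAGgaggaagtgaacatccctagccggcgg
Mat2b-001: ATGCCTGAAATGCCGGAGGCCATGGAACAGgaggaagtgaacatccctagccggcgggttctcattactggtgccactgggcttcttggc
Sumo3-001: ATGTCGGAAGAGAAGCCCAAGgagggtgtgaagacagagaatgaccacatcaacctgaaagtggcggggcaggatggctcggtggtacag
Sumo3-002: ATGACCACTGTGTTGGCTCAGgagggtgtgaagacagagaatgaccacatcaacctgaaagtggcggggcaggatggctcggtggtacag

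Arl2bp (ENSMUSG00000031776) lies on the plus strand at chr8:94666600-94674425. Its isoforms Arl2bp-001 and Arl2bp-002 share 451 coding bases, and the first exon of Arl2bp-002 ends at a splice donor 329 bases further downstream, so 38 coding bases of the first exon are replaced by 5. The annotated last exon, of which both code the same bases, is 1409 nt long in Arl2bp-001 and 273 nt in Arl2bp-002. Mat2b (ENSMUSG00000042032) lies on the minus strand at chr11:40679314-40695203. The first exon of Mat2b-001 starts 2429 bases upstream of that of Mat2b-002, and 63 coding bases of the latter are replaced by 30 ahead of 939 shared ones, and the last exon of 881 nt is the same. Sumo3 (ENSMUSG00000020265) lies on the plus strand at chr10:77606097-77618331. The first exon of Sumo3-002 starts 474 bases downstream of that of Sumo3-001, within the first intron of the latter, and both isoforms hold 21 coding bases there, of which 10 are identical, ahead of 309 shared ones. The annotated last exon is 2184 nt long in Sumo3-001 and 1275 nt in Sumo3-002, so the isoforms of Arl2bp and Sumo3 differ at both ends.

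Uap1 (ENSMUSG00000026670) lies on the minus strand at chr1:170141938-170174957. Within the coding sequence, its isoforms differ by exon 9 of Uap1-001 and Uap1-201, at chr1:170147996-170148046 in Uap1-001, which Uap1-002 skips. The exon is wholly coding and keeps the frame, and the annotated last exons are 635 nt long in Uap1-002, 571 nt in Uap1-001 and 570 nt in Uap1-201. Exon 9 is shown because the shares of Uap1 turn on it, with capitals for the 3 bases that only Uap1-001 includes.
Uap1-001: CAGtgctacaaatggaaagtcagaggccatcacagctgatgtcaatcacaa
Uap1-201: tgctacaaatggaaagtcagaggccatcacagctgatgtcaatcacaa
Sult4a1 (ENSMUSG00000018865) lies on the minus strand at chr15:84076097-84105754, and its 1 annotated isoform with at least 10 reads, Sult4a1-201, joins 7 exons with 852 coding bases.

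**Figure D1:**
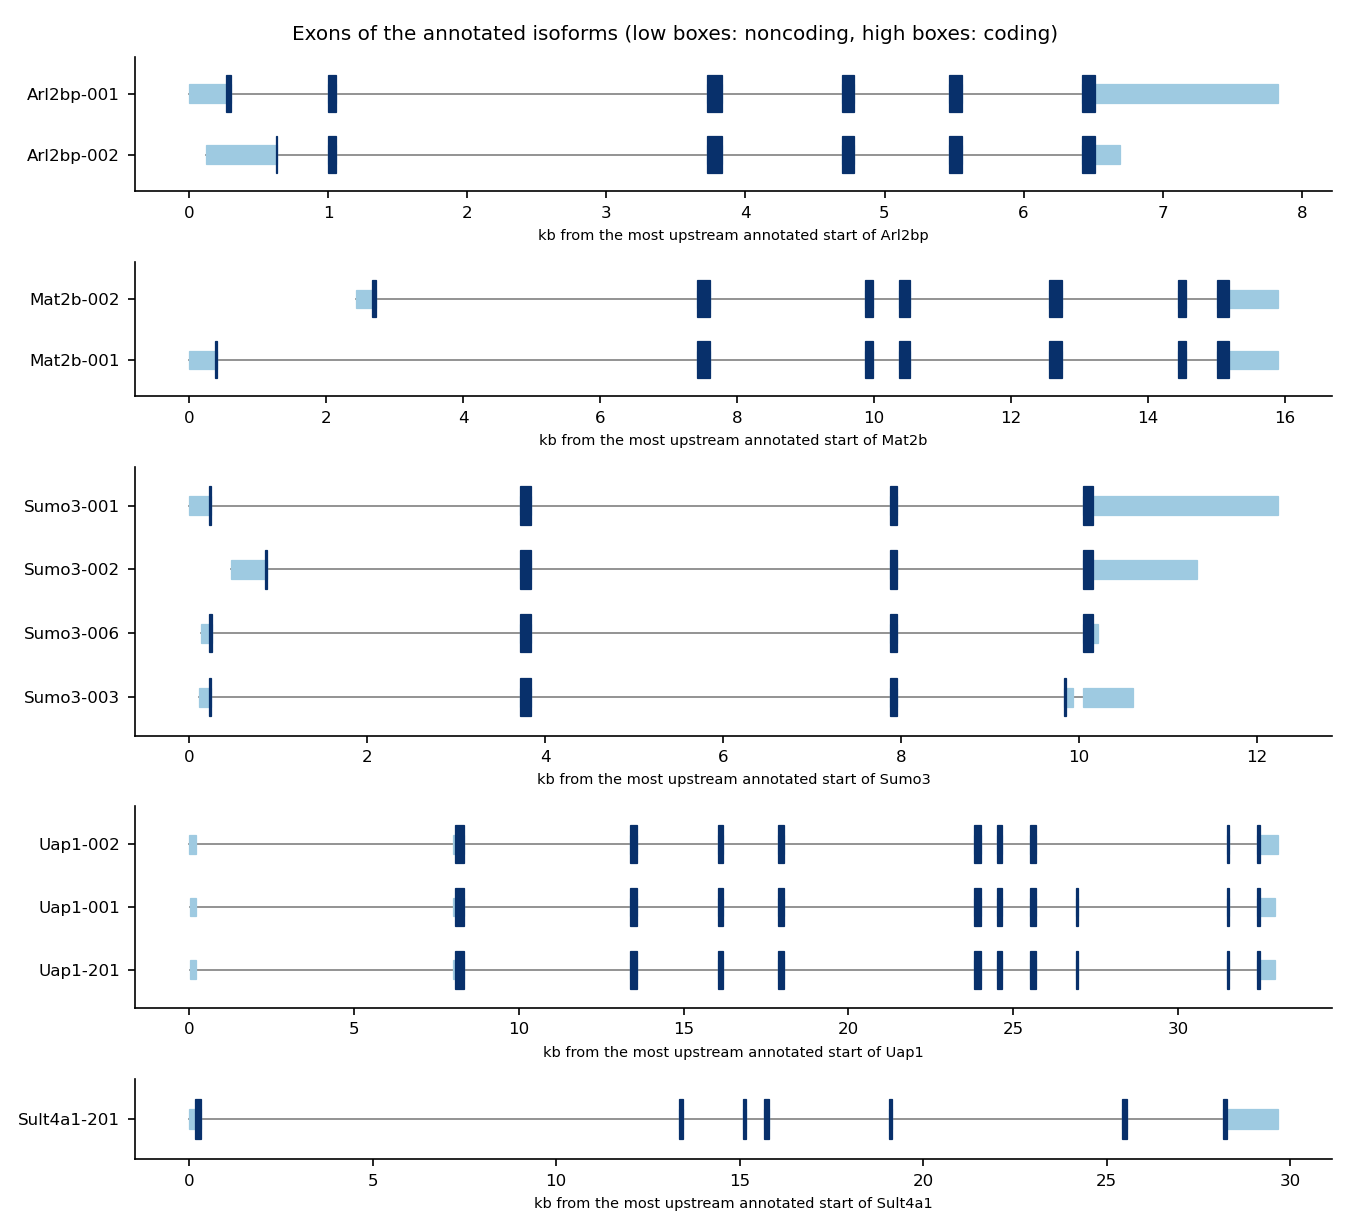
Exons of the annotated isoforms with at least 10 reads in a region for each gene except Arl2bp-005, drawn to scale in kb from the most upstream annotated start, in the direction of transcription. Arl2bp, Mat2b and Sumo3 differ in the first exon, Arl2bp and Sumo3 also in the length of the last exon, and Uap1-001 and Uap1-201 hold 1 exon that Uap1-002 skips.

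Of the 5 genes picked as cortical isoform shifts, Arl2bp and Mat2b had the widest gaps, with group means 20.5 and 16.5 percentage points apart in the cortex. In the other 3 genes the gap was small or rested on few reads. The mean difference was 1.07 points in Sult4a1 and 2.50 points in Sumo3, and Uap1 had 14 to 46 complete reads per cortical sample. The share of the leading isoform was higher in every R6/2 than in every NT mouse for 3 of 5 genes in the cortex (Arl2bp, Mat2b and Sult4a1) and overlapped between genotypes for Sumo3 and Uap1. Among 2126 genes with enough cortical reads, 3.25% had a leading isoform that was higher in every R6/2 mouse in this way. In 71 of the 2126 genes it was lower in every R6/2 mouse. Both are printed only as the background, since this contrast chose the genes.

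In the cortex, Arl2bp-002, the isoform with the downstream donor, held 23.0, 20.5, 22.7 and 20.9% of complete Arl2bp reads in NT mice 1 to 4. In R6/2 mice it held 3.53, 4.94, 6.25 and 4.48%. The groups did not overlap, and the lowest NT mouse had more than 3 times the share of the highest R6/2 mouse. Arl2bp-001 held 64.5% ± 3.63 (SD, n = 4) in NT and 85.0% ± 2.40 (SD, n = 4) in R6/2 mice, 20.5 points more. As a level, Arl2bp-002 stood at 35.0 ± 9.91 CPM in NT and 7.38 ± 1.77 CPM in R6/2 mice (mean ± SD, n = 4 each), with the groups apart, while Arl2bp-001 stood at 106 ± 37.7 and 131 ± 1.54 CPM, with the groups overlapping. The gene level was 178 ± 55.3 CPM in NT and 171 ± 3.86 CPM in R6/2 cortex, and the groups overlapped. Among reads of Arl2bp-001 and Arl2bp-002 only, a measure chosen after the values were seen, 60 of 245 NT and 17 of 310 R6/2 reads were of Arl2bp-002.

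In the striatum, Arl2bp-002 held 8.11, 13.8, 8 and 0% in NT mice and 7.58, 3.41, 5.43 and 0% in R6/2 mice. The groups overlapped, and the 0 values came from NT 4 with 11 complete reads and R6/2 4 with 15, which allow shares of up to 27.3% and 20%. Arl2bp-001 held 83.0% ± 5.50 in NT and 84.1% ± 6.46 in R6/2 striatum (SD, n = 4 each). The difference of 1.13 points did not pass (two-sided exact permutation test, p = 0.66 over 70 arrangements and p = 0.61 over the 36 arrangements within the number of sets). It was 0.61 points in samples of 1 set and 1.65 points in samples of 2 sets. Each NT striatal mouse had a lower share of Arl2bp-002 than each NT cortical mouse, and the cortical R6/2 shares lay within the striatal range, which is a description because the cortical shares chose the gene.

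In the cortex, Mat2b-001, which starts at the upstream first exon, held 29.2, 22.8, 22.1 and 28.7% of complete Mat2b reads in NT mice 1 to 4. In R6/2 mice it held 5.88, 9.09, 9.29 and 12.4%. No R6/2 mouse reached the lowest NT mouse. Mat2b-002 held 64.7% ± 4.33 in NT and 79.9% ± 2.61 in R6/2 mice (mean ± SD, n = 4 each). The level of Mat2b-001 was 72.8 ± 13.4 CPM in NT and 20.5 ± 5.36 CPM in R6/2 mice, with the groups apart, and that of Mat2b-002 was 189 ± 56.6 and 180 ± 22.5 CPM, with the groups overlapping. The whole gene stood at 318 ± 66.0 CPM in NT and 248 ± 27.3 CPM in R6/2 cortex, and NT 1, with 224 CPM, lay among the R6/2 mice. An NNC isoform of 7 exons and 1793 nt had 1, 1, 2 and 3 reads in R6/2 cortex. It had 0 of 464 complete reads in NT cortex, which allows a share of up to 0.647%. This isoform was not confined to R6/2 mice. Striatal samples had 6 of 621 complete reads of it in NT and 12 of 686 in R6/2 mice, with the shares overlapping.

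In the striatum, Mat2b-001 held 20.3, 17.3, 22.2 and 11.8% in NT mice and 14.7, 10.6, 14.8 and 26.2% in R6/2 mice. The highest and the lowest share both came from R6/2 mice, R6/2 4 and R6/2 2. The mean difference of -1.30 points did not pass (two-sided exact permutation test, p = 0.80 over 70 arrangements and p = 0.83 within the number of sets). It was 3.47 points in samples of 1 set and -6.07 points in samples of 2 sets, so the direction differed between the numbers of sets. NT striatum, at 17.9% ± 4.57 (SD, n = 4), lay between the cortical groups, with 25.7% ± 3.76 in NT and 9.16% ± 2.65 in R6/2 mice.

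Sult4a1 was read almost wholly as Sult4a1-201, which held 96.0, 96.9, 97.1 and 97.2% of complete reads in NT and 97.8, 97.8, 98.0 and 97.8% in R6/2 cortex. These groups did not overlap, at 315 to 1123 complete reads per mouse. Unannotated isoforms held the rest, with 74 of 2345 reads in NT and 63 of 3000 in R6/2 cortex. Of the 74, 16 were of 1 NIC isoform of 2 exons and 1599 nt, with 5, 8, 1 and 2 reads in NT mice 1 to 4. That isoform had 0 of 3000 reads in R6/2 cortex, which allows a share of up to 0.1%, 1 of 2235 reads in NT striatum and 0 of 2449 in R6/2 striatum. With annotated isoforms only, Sult4a1-201 was the whole of the gene in both genotypes, so the cortical difference of 1.07 points was carried by isoforms with few reads.

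In the striatum, Sult4a1-201 held 97.9, 97.3, 96.7 and 97.0% in NT and 96.0, 98.0, 96.7 and 95.9% in R6/2 mice. The groups overlapped. The difference of -0.58 points did not pass (two-sided exact permutation test, p = 0.34 over 70 arrangements and p = 0.17 within the number of sets), and it was -0.90 points in samples of 1 set and -0.26 points in samples of 2 sets.

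Sumo3-001 held most Sumo3 reads in every mouse, with 95.1, 94.5, 92.7 and 92.6% in NT and 96.8, 98.4, 95.1 and 94.6% in R6/2 cortex. The groups overlapped. Sumo3-002, with the first exon inside the first intron, held 1.63, 2.45, 1.22 and 3.43% in NT cortex, which were 2, 4, 1 and 6 reads. In R6/2 cortex it had 1 read among 848 complete reads, in R6/2 3, and no R6/2 mouse reached the lowest NT share. A single mouse with 0 reads allows a share of 1.60% to 2.04% here, so the cortical groups were apart in shares but not in what counting allows for each mouse.

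In the striatum, Sumo3-001 held 94.3% ± 1.44 in NT and 96.4% ± 1.12 in R6/2 mice (mean ± SD, n = 4 each). The difference of 2.07 points did not pass (two-sided exact permutation test, p = 0.086 over 70 arrangements and p = 0.11 within the number of sets), and it was 1.15 points in samples of 1 set and 2.99 points in samples of 2 sets. With annotated isoforms only as the total, the difference was 2.11 points and reached an exact permutation p = 0.029, the smallest that 70 arrangements give. Sumo3-002 had 4, 10, 3 and 2 reads in NT and 0, 3, 3 and 1 reads in R6/2 striatum, or 1.19, 1.52, 1.26 and 2.35% against 0, 0.698, 0.659 and 0.735% of complete reads. Its share was lower in every R6/2 than in every NT mouse, and how often less used isoforms of all genes separate so was not counted. The same order in the cortex is no separate support, since the cortical shares chose the gene, and Sumo3-002 was not the isoform picked for testing. Among reads of Sumo3-001 and Sumo3-002 only, a measure chosen after the values were seen, Sumo3-002 made up 1.65% ± 0.567 in NT and 0.539% ± 0.361 in R6/2 striatum (SD, n = 4 each; two-sided exact permutation test, p = 0.029 over 70 arrangements and p = 0.056 within the number of sets, the smallest values these designs allow). With the first set of counts alone, or without R6/2 1, the exact permutation p was 0.057. Sumo2 and Sumo3 are close relatives in sequence, and how the mapping divided reads between them was not tested.

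Uap1 had the fewest reads of the 5 genes. In the cortex, Uap1-001, which includes the full exon 9, held 25.0, 19.6, 0 and 24.3% in NT mice 1 to 4, which were 5, 9, 0 and 9 reads. In R6/2 mice it held 0, 0, 2.22 and 6.67%, which were 0, 0, 1 and 2 reads. NT 3 lay with the R6/2 mice, with 0 of 14 complete reads, which allows a share of up to 21.4%. The level of Uap1-001 was 12.4 ± 8.67 CPM in NT and 1.45 ± 2.10 CPM in R6/2 cortex, and that of Uap1-002, which skips the exon, was 51.7 ± 17.7 and 44.3 ± 8.62 CPM (SD, n = 4 each). Uap1-201, with the exon shortened by 3 bases, had 4 reads in NT and 6 in R6/2 cortex.

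In the striatum, Uap1-001 held 15.2, 22.6, 12.5 and 50.0% in NT and 7.14, 2.78, 6.98 and 6.25% in R6/2 mice. Every R6/2 mouse was below every NT mouse, again without a count of such separation over all genes. These shares rest on 28 of 136 complete reads in NT and 6 of 109 in R6/2 mice. A mouse had 2 to 93 complete reads in NT and 14 to 43 in R6/2 striatum. Uap1 was left out of the striatal overlap count of leading isoforms, which needed 5 complete reads in every sample. The difference of -19.3 points gave p = 0.029 over 70 arrangements and p = 0.056 over the 36 within the number of sets (two-sided exact permutation tests), each the smallest its design allows, in the same direction in samples of 1 set (-24.6 points) and of 2 sets (-14.0 points). NT 4 had 2 complete Uap1 reads and NT 3 had 8, and without NT 4 the difference was -11.0 points with the groups still apart. Without any 1 of the R6/2 mice, the exact permutation p was 0.086. Counting either form of the exon, a measure chosen after the values were seen, 34 of 128 spanning reads in NT striatum included it. NT 2 alone gave 23 of the 34 and 87 of the 128. In R6/2 striatum, 10 of 100 spanning reads included the exon. Per mouse, inclusion was 22.6% or more in NT and 14.3% or less in R6/2 striatum. In the cortex, 27 of 111 spanning reads in NT and 9 of 110 in R6/2 mice included it. The cortical genotypes overlapped, with NT 3 at 7.69%, below R6/2 4 and below R6/2 2 at 8.70%. Uap1 was 1 of 5 genes so tested, Sumo3 was the next with an exact permutation p = 0.086, and these p-values are not adjusted for the number of genes.

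**Figure D2:**
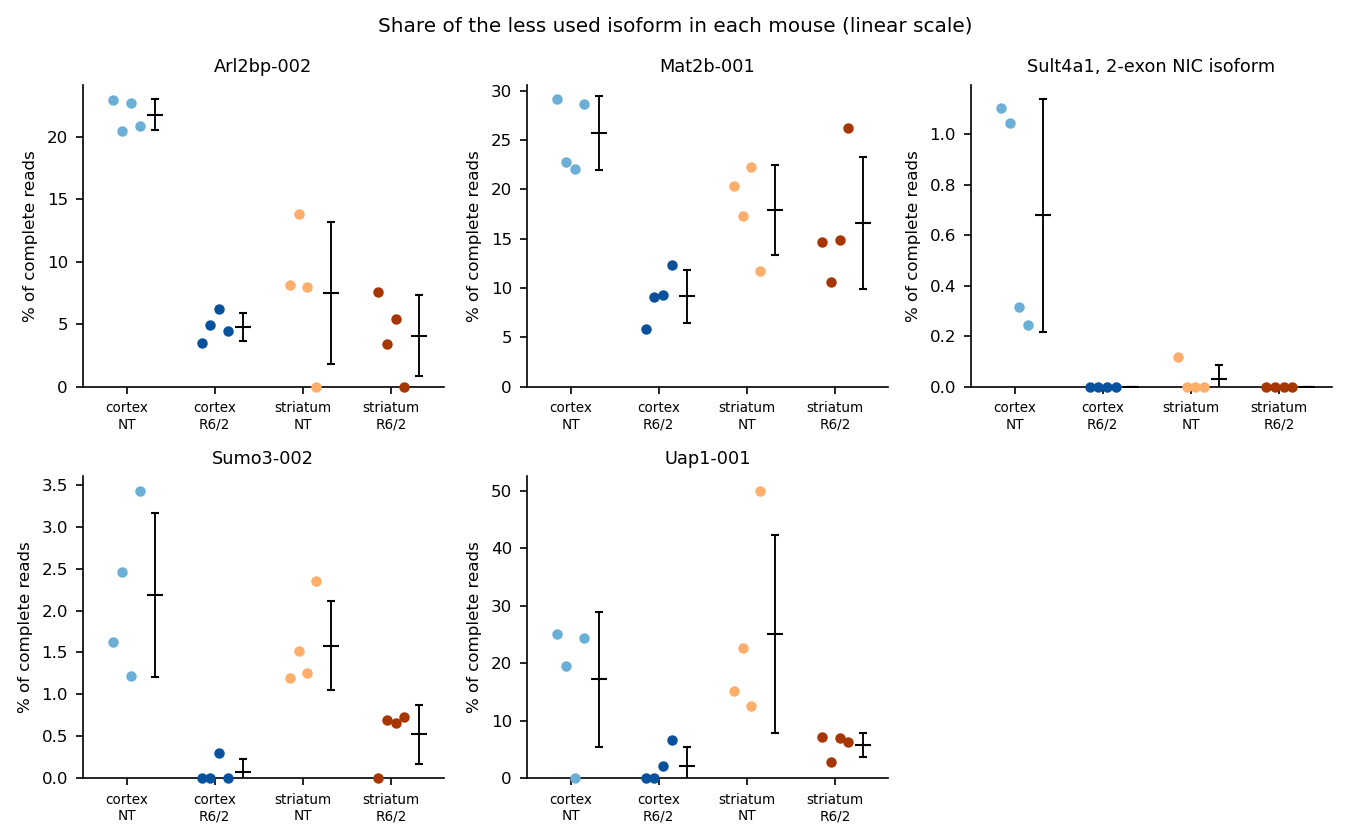
Share of the less used isoform in percent of complete reads, with 1 point per mouse in each region and genotype and the mean ± SD (n = 4) beside them, cut at 0. Arl2bp-002 and Mat2b-001 are apart between genotypes in the cortex and overlap in the striatum, while Uap1-001 and Sumo3-002 are lower in every R6/2 than in every NT striatal sample. How often less used isoforms of all genes are apart in this way was not counted. In the striatum, Uap1-001 had 28 NT and 6 R6/2 reads and Sumo3-002 had 19 NT and 7 R6/2 reads.

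**Figure D3:**
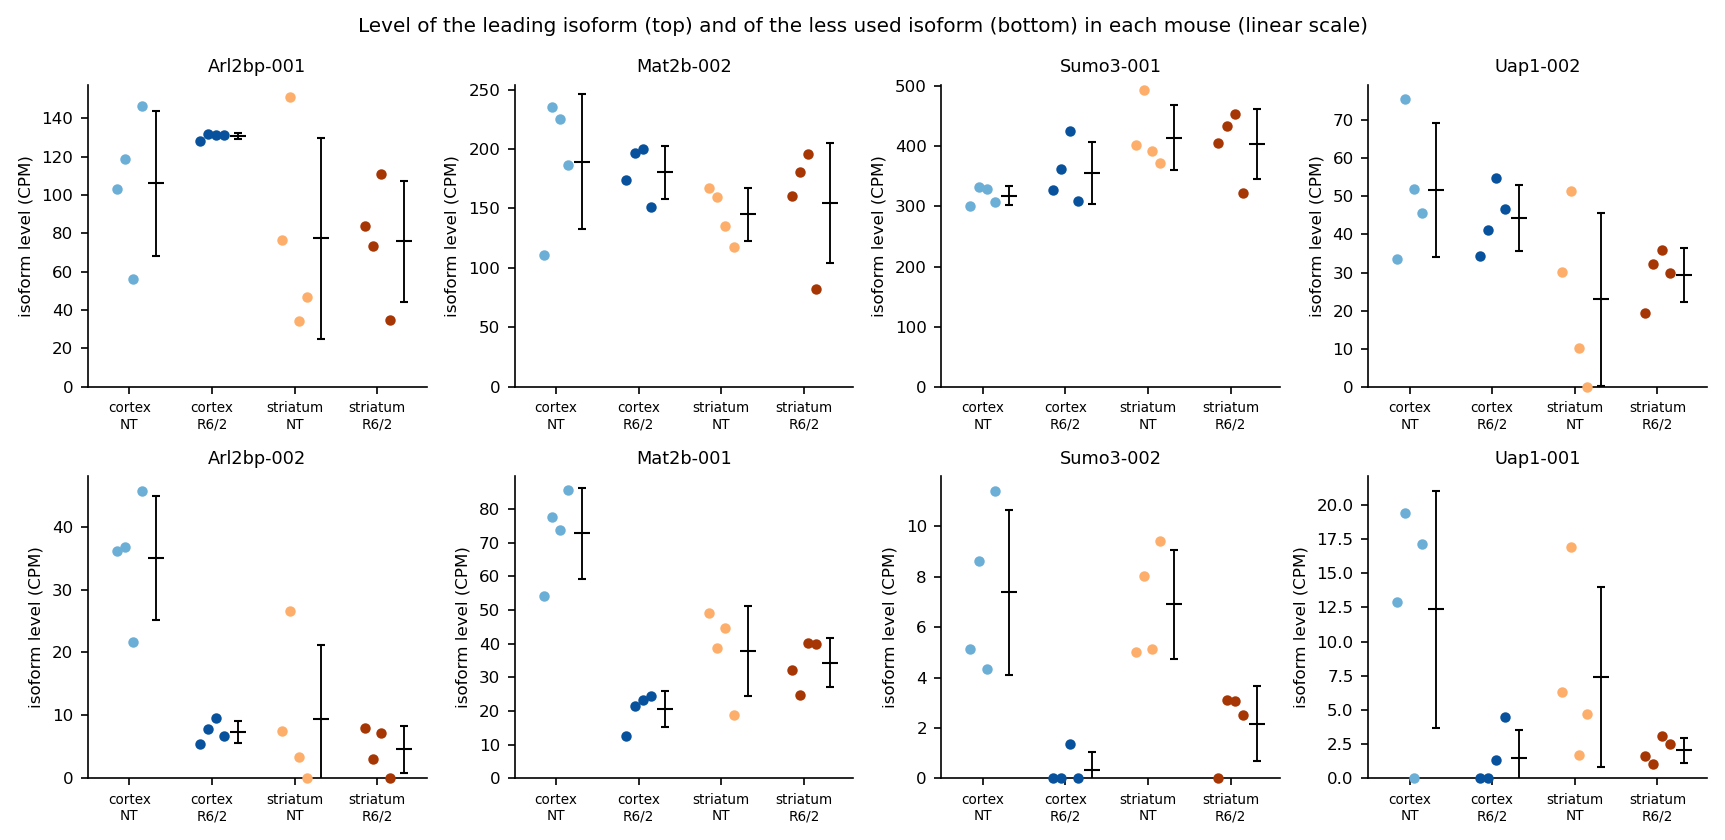
Level in CPM of the leading isoform (top row) and the less used isoform (bottom row) of 4 genes, with 1 point per mouse and the mean ± SD (n = 4), cut at 0. In the cortex the leading isoforms overlap between genotypes, and Arl2bp-002 and Mat2b-001 stand at 7.38 and 20.5 CPM in R6/2 against 35.0 and 72.8 CPM in NT mice.

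Isoform usage was also tested across all genes of the striatum with edgeR's diffSpliceDGE, with the number of sets as a term and Benjamini-Hochberg adjustment. Of 4443 genes, 20 had an adjusted p under 0.05, which is 0.45%, and 300 had an unadjusted p under 0.05. Of the 5 genes, 0 were called, also with the gene-level F test, and 1 had an unadjusted p under 0.05. That gene was Uap1 (unadjusted p = 0.021, adjusted p = 0.54), and Sumo3 followed (unadjusted p = 0.076, adjusted p = 0.88). Among 20 isoforms of the 5 genes, 0 were called and 3 had an unadjusted p under 0.05. The share of all striatal isoforms with an unadjusted p under 0.05 was not counted, so the 3 stand without a background. Relative to the rest of its gene, Uap1-001 differed by -1.92 on the log2 scale (unadjusted p = 0.0072, adjusted p = 0.38), Sumo3-002 by -1.36 (unadjusted p = 0.038, adjusted p = 0.77) and Sumo3-006, which starts close to Sumo3-001, by -1.66 (unadjusted p = 0.028, adjusted p = 0.70). Arl2bp-002 differed by -1.21 and Mat2b-001 by -0.36, with unadjusted p = 0.093 and 0.26. In simulated counts this test recovered 21.7% of 198 changes of 4-fold, so a difference that was not called here may still be present. Of the 4 genes with enough striatal reads, 0 had a leading isoform whose share was higher in every R6/2 than in every NT mouse, beside 3.26% of 2485 genes. In 105 of the 2485 genes it was lower in every R6/2 mouse, and all 4 genes overlapped. These counts do not cover less used isoforms such as Sumo3-002 and Uap1-001.

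Gene levels were then compared. In the striatum, the level of Sult4a1 was 1102, 859, 556 and 353 CPM in NT and 625, 927, 1049 and 599 CPM in R6/2 mice. The higher values came from samples of 2 sets in both genotypes. Sumo3 stood at 451 ± 60.6 CPM in NT and 425 ± 53.9 CPM in R6/2 mice, Mat2b at 238 ± 13.1 and 244 ± 39.7 CPM, Arl2bp at 109 ± 61.1 and 107 ± 33.4 CPM, and Uap1 at 40.0 ± 27.7 and 39.9 ± 8.54 CPM (SD, n = 4 each). The groups overlapped for all 5 genes. With edgeR's quasi-likelihood test and the number of sets as a term, log2 differences of R6/2 minus NT ran from -0.12 (Sumo3, SE 0.15) to 0.17 (Sult4a1, SE 0.18), and 0 of 5 genes were called, with 0 at an unadjusted p under 0.05 and 0 by DESeq2. The smallest adjusted p was 0.70. Over all 7694 genes tested, 0.494% were called higher and 3.82% lower in R6/2 striatum.

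In the cortex, gene levels of the 5 genes are a description. Sult4a1 stood at 1298, 1710, 1495 and 1641 CPM in NT and 1159, 1359, 1598 and 1471 CPM in R6/2 mice, which overlapped. Sumo3 stood at 343 ± 15.5 CPM in NT and 376 ± 53.9 CPM in R6/2 mice, and Uap1 at 81.1 ± 16.7 and 60.6 ± 11.9 CPM (SD, n = 4 each), also with overlap. The fitted log2 differences of R6/2 minus NT were -0.43 for Uap1, -0.37 for Mat2b, -0.15 for Sult4a1, -0.10 for Arl2bp and 0.12 for Sumo3.

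**Figure D4:**
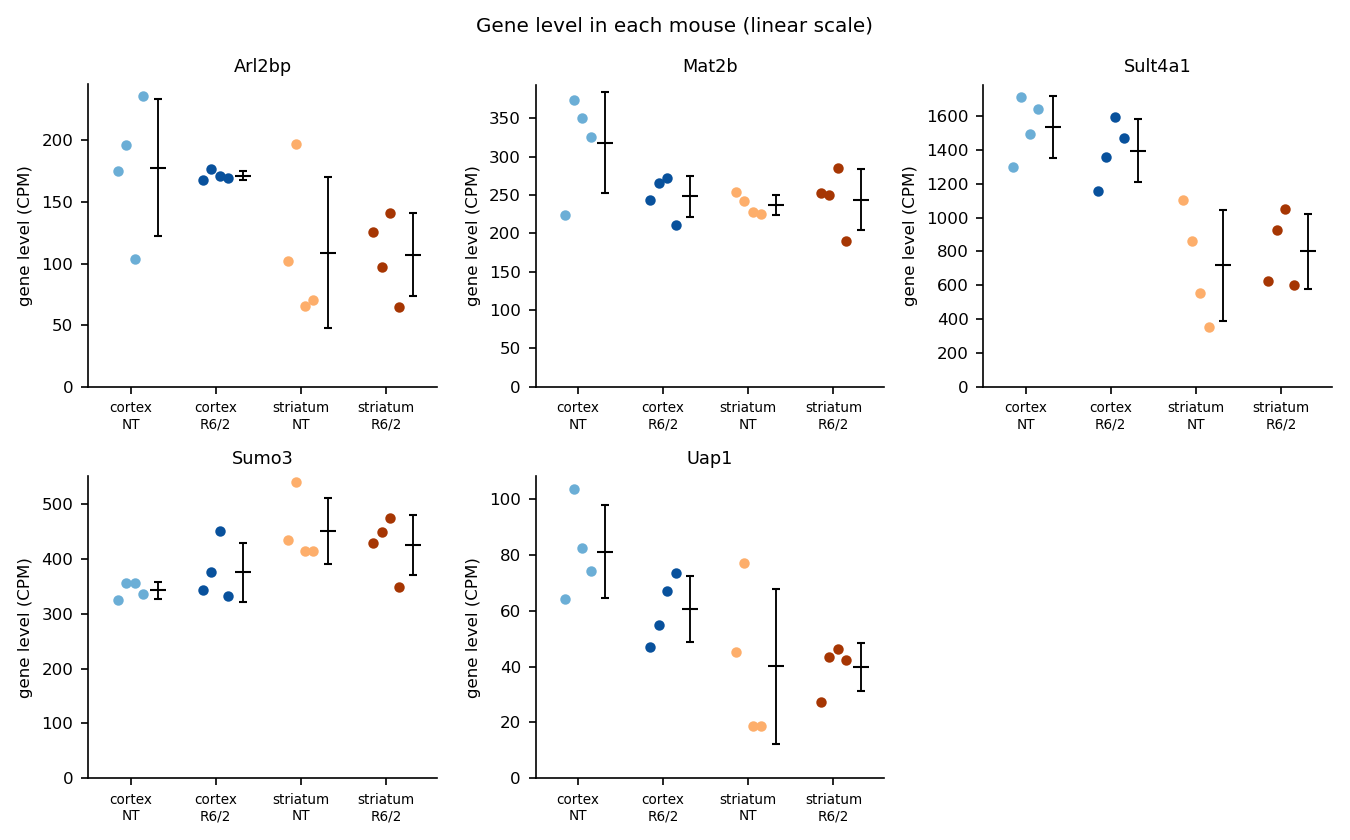
Gene level in CPM with 1 point per mouse in each region and genotype and the mean ± SD (n = 4) beside them. Sult4a1 is lower in every striatal sample (353 to 1102 CPM) than in every cortical sample (1159 to 1710 CPM), and the genotypes overlap for each gene in each region.

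Between regions in NT mice, Sult4a1 was at 1536 ± 182 CPM in the cortex and 717 ± 330 CPM in the striatum (SD, n = 4 each), and every striatal value was below every cortical one. In bulk tissue, fewer cells of a type and less RNA per cell cannot be told apart. On the log2 scale the striatum differed by -1.07 ± 0.33 (SE) for Sult4a1, -0.88 ± 0.38 for Uap1, -0.66 ± 0.35 for Arl2bp, -0.37 ± 0.24 for Mat2b and 0.44 ± 0.23 for Sumo3. With edgeR's quasi-likelihood test 0 of 5 genes passed, with adjusted p of 0.060 for Sult4a1 and 0.18 to 0.37 for the others, 2 had an unadjusted p under 0.05, and DESeq2 called Sult4a1 (adjusted p = 0.011). Over 6175 genes, edgeR called 5.86% higher and 3.6% lower in the striatum, and 1552 had an unadjusted p under 0.05 in edgeR. DESeq2 called 415 of the 6175 higher and 298 lower. The median log2 difference of all genes was 0.12, or -0.01 with upper-quartile normalization, which turned the direction of none of the 5. All cortical samples had 1 set of counts. With only the NT striatal samples of 1 set, Sult4a1 (-1.84, adjusted p = 0.00026), Uap1 (-2.19, adjusted p = 0.00045) and Arl2bp (-1.50, adjusted p = 0.0028) passed in edgeR. That fit called 902 of 6563 genes higher and 713 lower, so calls were frequent among all genes. In these samples, NT 3 and NT 4, 34.2% and 26.7% of Arl2bp gene reads were ISM, against 8.64% and 2.45% in NT 1 and NT 2. Sult4a1 also passed without NT 1 (adjusted p = 0.025) and Uap1 without NT 2 (adjusted p = 0.030). Without striatal NT 1, edgeR called 370 of 6326 genes higher and 236 lower, and without striatal NT 2 it called 429 of 6326 higher and 250 lower. The part of the number of sets in the levels was not tested further.

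The other genes of the 5 pathways were counted from lists of the ARL2 and ARL3 GTPase system, methionine and S-adenosylmethionine, sulfation, the SUMO pathway, and the hexosamine pathway with O-GlcNAc. In the cortex, 34 of 69 listed genes were tested between genotypes, and 0 were called by edgeR or by DESeq2, with 4 at an unadjusted p under 0.05. Over all 6128 cortical genes, 0.457% were called higher and 2.77% lower in R6/2 mice, and 1055 had an unadjusted p under 0.05 in edgeR. The 4 genes, named after their values were seen, were Cbs and Adk of methionine metabolism (log2 -0.95 and -0.40), Gnpnat1 of the hexosamine pathway (1.04) and Mgea5, the O-GlcNAc hydrolase (-0.69), with edgeR adjusted p of 0.16 to 0.29. The median log2 difference of tested genes was -0.40 for methionine genes, 0.22 for SUMO genes, 0.07 for the ARL2 and ARL3 genes, -0.11 for hexosamine genes and -0.12 for sulfation genes, beside 0.02 for all genes.

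In the striatum, 39 of 69 listed genes were tested. Over all 7694 striatal genes, 1354 had an unadjusted p under 0.05 in edgeR. Of the 39, 0 were called by edgeR or by DESeq2, and 6 had an unadjusted p under 0.05. Named after their values were seen, these were Uba2 and Sae1, the subunits of the SUMO activating enzyme (log2 0.46 and 0.45), Nagk (0.45) and Mgea5 (-0.90) of the hexosamine and O-GlcNAc list, Arl3 (-0.51) and Ahcyl1 (-0.41), with edgeR adjusted p of 0.090 to 0.28. List medians ran from -0.14 (methionine) to 0.25 (hexosamine), beside a median of 0.00 for all genes. Between regions, Pias1, a SUMO ligase, was the 1 gene of 32 tested that passed, and was higher in NT striatum (log2 1.40 ± 0.31 (SE), edgeR adjusted p = 0.015).

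Marker sums of other cell types are given because they could move with the shares. In the cortex, the summed level of 9 markers of striatal projection neurons was 334 to 469 CPM in NT and 92.3 to 129 CPM in R6/2 mice. That of 5 astrocyte markers was 650 to 996 and 511 to 579 CPM. Both lists were lower in every R6/2 than in every NT cortical sample, and fewer cells and less RNA per cell cannot be told apart here. The genotypes overlapped in the cortex for 7 markers of cortical excitatory neurons (108 to 179 and 117 to 160 CPM), 6 of oligodendrocytes (3134 to 6999 and 3485 to 5380 CPM), 5 of microglia (143 to 278 and 155 to 199 CPM) and 5 of choroid plexus (17.3 to 939 and 30.7 to 1555 CPM). Every marker had reads in each cortical group. In the striatum, the markers of projection neurons summed to 9843 to 14329 CPM in NT and 2004 to 3312 CPM in R6/2 mice. There, the astrocyte markers summed to 348 to 955 and 429 to 718 CPM, those of oligodendrocytes to 12303 to 30996 and 13934 to 19350 CPM, those of microglia to 169 to 347 and 215 to 365 CPM, those of choroid plexus to 52.8 to 10066 and 101 to 313 CPM, and those of cortical excitatory neurons to 0 to 46.5 and 12.3 to 52.4 CPM. In R6/2 striatum Kl, of the choroid plexus list, had no reads. The part of cell makeup in the isoform shares was not tested.

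Across the 16 samples, the genes whose level was most like that of a member were Syt13 (r = 0.98) and Rab6a (r = 0.97) for Sult4a1, Saraf (r = 0.93) and Stk25 (r = 0.91) for Uap1, Btbd1 (r = 0.92) and Pnmal1 (r = 0.91) for Arl2bp, Clptm1 (r = 0.87) for Sumo3, and Fam134b (r = 0.81) and Elovl4 (r = 0.79) for Mat2b. These are Pearson correlations of log2 CPM over 4757 genes with at least 20 reads on average, and they are a description in which the samples share region, depth and number of sets. Within the 8 cortical samples alone the same correlations ran from 0.51 (Arl2bp with Btbd1) to 0.93 (Uap1 with Stk25).

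The 2 sets of counts of a striatal sample were also compared. The sources used here do not say whether they are libraries, runs or mice, so their differences are a description and not an error of the shares. In the 4 samples with 2 sets, the share of Arl2bp-001 differed between sets by 1.58 to 4.62 points at 35 to 141 complete reads per set, that of Mat2b-001 by 1.17 to 9.10 points at 81 to 144 reads, and that of Uap1-001 by 3.07 to 9.72 points at 9 to 50 reads. Sult4a1-201 differed by 0.37 to 1.17 points and Sumo3-001 by 0.28 to 2.76 points. Limits for a count of 0 take 3 reads of the total and cover counting error only, since molecules were not counted by unique identifiers.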

How the data were processed

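Circular consensus reads that were full-length and poly(A)-tailed were mapped by the authors with minimap2 (2.17-r941, per the labels; build mm10). TranscriptClean corrected the alignments, and TALON, with an Ensembl database, gave each read an isoform. The values they deposited are counts of reads per isoform before TALON's filter, without normalization, in 20 files for 16 samples. The 2 sets of 4 striatal samples were summed. No 2 of the 16 samples had identical counts.

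Groups, sex and numbers come from the labels, and age and strain from the study's methods. The labels do not say more on how the samples were made independent, so p-values measure the spread between these samples. Members and gene lists were chosen with earlier results of these data known.

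Gene counts are sums of known, ISM, NIC and NNC reads. Isoforms needed 10 reads in the 8 samples of a region. The shifted isoform of a gene, tested in the striatum, is the one with the largest difference of mean cortical share between genotypes: Arl2bp-001, Mat2b-001, Sult4a1-201, Sumo3-001 and Uap1-001. Named were the 5 members, their isoforms, the 2 genes most like each in level and up to 3 list genes with an adjusted p under 0.05; other names are said to follow from values. Some items that this rule or the lists name are not reported here. Expression and isoform usage were tested in edgeR 4.0.16 (R 4.3.3) with TMM, filterByExpr, glmQLFit and glmQLFTest or diffSpliceDGE (Simes p), with Benjamini-Hochberg adjustment over all features, and DESeq2 1.42.0 as an alternative. The striatal fits had the number of sets as a term. CPM used effective libraries over all 16 samples. Exact permutation tests and figures were made in Python 3.11.15 with scipy 1.17.1 and matplotlib 3.10.9. Exons and sequences come from GENCODE M21 (mm10). The tests were tested on simulated data with 4-fold changes, of which 99.5% were recovered for expression in the striatum, 100% in the cortex and 90.2% between regions.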

Additional observations from a re-analysis of the deposited data

Results flagged for a closer look

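In 2 of 40 groups of 4 samples, a sample stood further from the others than Dixon's 95% critical value allows, where chance gives about 1 in 20. In R6/2 cortex, R6/2 3 had the highest share of Sult4a1-201, 98.0% (98.041%), next to 97.8% in the nearest mouse, at 1123 complete reads. In NT striatum, NT 2 had the highest Sumo3 level, 540 CPM (540.467 CPM), next to 435 CPM, and was the deepest of the 16 samples.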

How the results depend on the processing

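The cortical shares kept their direction under all alternatives run, except that Sult4a1-201 differed by 0 points with annotated isoforms only, where it is the whole gene. With ISM reads in the total, the cortical difference was 17.4 points for Arl2bp-001 and 2.64 points for Sult4a1-201, and the striatal one of Sult4a1-201 turned to 1.24 points (exact permutation p = 0.66). In the striatum, leaving out 1 sample at a time gave -1.94 to 3.77 points for Arl2bp-001 (below 0 without NT 2 or R6/2 4), -4.51 to 0.70 points for Mat2b-001 (above 0 without NT 3 or R6/2 2) and -4.91 to 1.93 points for Mat2b-001 among reads of both annotated isoforms, which was 5.38 points in samples of 1 set, where Mat2b-001 among all complete reads differed by 3.47 points. Sumo3-001 differed by 2.11 points with annotated isoforms only (exact permutation p = 0.029). Uap1-001 differed by -23.5 to -11.0 points with 1 sample left out, with an exact permutation p = 0.086 without any 1 of the R6/2 samples.

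The sources used here do not say whether a number marks the same mouse in both regions. The deviations of same-numbered samples correlated at -0.65 to 0.71 in 16 pairs. In R6/2 mice the correlations between regions were 0.54, 0.26, 0.46 and -0.03, a comparison not made here, and in each of the comparisons made 2 of 4 pairs were over 0.1, so the numbers were not taken as pairs. With the replicate block the difference of a share (-19.3 points for Uap1-001) is the same by construction, and 0.125, its exact permutation p, is the smallest that 4 pairs allow. With the replicate block, 20 genes were called for isoform usage and 182 for expression in the striatum, 205 in the cortex and 310 between regions, and 0 of the 5 genes were among those of the striatum or between regions.

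For isoform usage, the 20 genes called became 3 without the term for the number of sets, 74 with the F test, 7 with annotated isoforms only, 11 with ISM isoforms and 8 with the first set, and 5 to 26 with 1 sample left out (5, 11 and 12 without R6/2 2, R6/2 3 or R6/2 1, and 6 without NT 3). For expression in the striatum, the 332 became 39 without that term, 637 without a filter, 183 with the first set, and 145 to 392 with 1 sample left out, under 222 without NT 2, NT 3 or any R6/2 sample. In the cortex, the 198 became 95 without ISM reads and 95 to 300 with 1 sample left out (300 without NT 1, 95 to 129 without any R6/2 sample). Between regions, the 584 became 1222 without a filter, 367 without ISM reads, 1615 with samples of 1 set, and 364 to 740 with 1 sample left out (364 without cortical NT 2, 383 without striatal NT 3). The split between regions was 362 higher and 222 lower, or 280 and 267 with upper-quartile normalization. Causes were not tested.

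The striatal log2 differences in gene level that were near 0 changed sign. Uap1 had 0.0133 with DESeq2, 0.0560 with the first set and -0.29 to 0.28 with 1 sample left out. Arl2bp had 0.0225 with upper-quartile normalization, 0.0223 with DESeq2, 0.0024 without a filter, 0.0147 with the genomic class, 0.0572 with the first set, 0.017 with the replicate block and -0.27 to 0.35 with 1 sample left out. Mat2b had -0.0041 without the term for sets, -0.012 without ISM reads, -0.0090 with the first set and -0.0367 to 0.0810 with 1 sample left out. Of the 5 genes, 0 were called for isoform usage or striatal level under any alternative.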
